A study of Homo sapiens with 8 samples.

Results

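HGF, VSIG4, RAB7B, VGLL3 and KLF2 are 5 genes that read higher in KBM7 cells with a gene trap in JAK2 than in wild-type (WT) KBM7 cells. They were chosen by name, with the difference between the JAK2 mutant arrays and the other arrays known, among 18132 genes measured by 49395 probe sets, and every probe set annotated to them, 14 in all, was taken. That difference is therefore given as a description only. KBM7 is a near-haploid chronic myeloid leukaemia line, in which a single gene-trap insertion can disable a gene.

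RNA was hybridised to 8 arrays, 1 per sample. The JAK2 mutant was measured after 6 hours with 100 ng/ml IFN-gamma and unstimulated, and the TNFRSF1A mutant, which lacks the receptor TNFR1, after 6 hours with 10 ng/ml TNF-alpha and unstimulated. WT cells were measured with either cytokine at these doses and time and, unstimulated, on a pair of arrays: WT replicate 1 belongs to the IFN-gamma arm, and WT replicate 2 to the TNF-alpha arm. Both mutants share the KBM7 background of the WT cells. The labels do not say how many clones stand behind each mutant, so the trapped gene and the history of the mutant line cannot be told apart, and nothing says that the WT replicates were separate cultures.

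HGF encodes hepatocyte growth factor, a secreted ligand that is cleaved to its active form and signals through the receptor tyrosine kinase MET. VSIG4 encodes a complement receptor of the immunoglobulin superfamily, known from tissue macrophages, which binds fragments of C3. RAB7B encodes a small GTPase that directs transport between late endosomes and the trans-Golgi network. VGLL3 encodes a cofactor of the TEAD transcription factors, and KLF2 a zinc finger transcription factor known for its induction through MEK5, ERK5 and MEF2 and for its part in the quiescence of T cells and endothelium. JAK2 is a kinase that carries signals of many cytokine receptors, the IFN-gamma receptor among them.

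RefSeq gave 1 promoter window for 4 of the genes and 2 for RAB7B, each 250 bases before to 50 after a start (GRCh38.p14, gene strand, 5′ to 3′). Shown are the windows that held a match to the TEAD element GGAATG, since VGLL3 acts through TEAD factors, or to the MEF2 consensus, since MEF2 factors act on KLF2; capitals mark these matches. They are chr7:81769998-81770297 (minus strand) for HGF, chrX:66040031-66040330 (minus strand) for VSIG4, chr1:206003346-206003645 (minus strand) for RAB7B and chr19:16324576-16324875 (plus strand) for KLF2.
HGF: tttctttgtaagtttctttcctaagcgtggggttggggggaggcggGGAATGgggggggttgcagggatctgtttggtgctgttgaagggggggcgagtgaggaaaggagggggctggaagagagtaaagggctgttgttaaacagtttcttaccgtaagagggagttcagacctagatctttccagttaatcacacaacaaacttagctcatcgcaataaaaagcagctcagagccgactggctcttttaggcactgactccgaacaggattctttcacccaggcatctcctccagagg
VSIG4: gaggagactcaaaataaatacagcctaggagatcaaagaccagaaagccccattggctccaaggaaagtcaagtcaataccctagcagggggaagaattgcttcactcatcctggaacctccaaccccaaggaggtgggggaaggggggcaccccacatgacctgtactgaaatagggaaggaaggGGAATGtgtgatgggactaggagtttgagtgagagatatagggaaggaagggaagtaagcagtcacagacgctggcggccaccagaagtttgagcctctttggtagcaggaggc
RAB7B: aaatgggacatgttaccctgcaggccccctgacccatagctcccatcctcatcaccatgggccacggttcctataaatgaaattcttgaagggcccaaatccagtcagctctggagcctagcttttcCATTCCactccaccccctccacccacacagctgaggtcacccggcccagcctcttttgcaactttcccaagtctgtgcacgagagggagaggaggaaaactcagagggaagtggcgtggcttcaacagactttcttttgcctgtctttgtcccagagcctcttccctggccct
KLF2: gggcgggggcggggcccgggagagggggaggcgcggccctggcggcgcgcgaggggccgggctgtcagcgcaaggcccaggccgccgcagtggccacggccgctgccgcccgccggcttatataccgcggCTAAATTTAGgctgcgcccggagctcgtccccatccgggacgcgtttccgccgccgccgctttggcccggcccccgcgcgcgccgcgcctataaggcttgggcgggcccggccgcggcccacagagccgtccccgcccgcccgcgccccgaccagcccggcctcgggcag

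GGAATG, searched on both strands, stood in windows of 3 of the 5 genes and in 14.0% of the 35116 RefSeq windows. The MEF2 consensus stood in the KLF2 window alone, 120 bases before its start, and in 2.99% of all windows. The GC box GGGCGG was in the windows of VGLL3 and KLF2 and in 45.0% of all windows. CACCC, an element bound by KLF factors, was in windows of 4 of the genes and in 59.9% of all. TATAAA was found in RAB7B alone, against 11.5% of all windows. No window of the 5 genes held the STAT element TTCNNNGAA (7.66% of all), the interferon element ISRE (3.57%) or the E box CACGTG (7.26%), which says only that these letters are not in these windows. The GC content was 51.0% in the HGF window, 52.0% in that of VSIG4, 68.0% in that of VGLL3 and 80.7% in that of KLF2, with a median of 58.7% over all windows. The 5 genes thus shared no element of this set, and they lie on chromosomes 7, X, 1, 3 and 19.

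All values below are log2 of the authors' normalized intensity or differences of it between 2 arrays. Median array intensities ran from 63.9 to 66.9. A gene's value is that of its brightest probe set on average, and the 11529 genes that reached a log2 of 6 on at least 1 array were compared. A difference of 2-fold, 1 on the log2 scale, was counted, with no p-value, because each side is 1 array. The SD of the difference between the unstimulated WT arrays, taken over genes, was 0.38 and is called the spread. Each array's background range ends at the 75th percentile of its background probe sets, at 5.76 to 6.04. The 3 JAK2 probe sets read 3.61 to 5.32 in the IFN-gamma-treated and 3.90 to 5.08 in the unstimulated JAK2 mutant, all in that range, against 5.97 to 7.01 on the 6 other arrays. The brightest TNFRSF1A probe set read 6.55 and 6.56 in the TNFRSF1A mutant with and without TNF-alpha and 9.23 to 9.83 elsewhere. The ratio of the actin probe sets at the 3′ and 5′ ends, which follows RNA integrity, was 6.47 and 5.74 on the JAK2 mutant arrays with and without IFN-gamma and 3.27 to 5.53 on the others; its part in the results was not tested. In such bulk RNA, fewer cells of a type and less RNA per cell cannot be told apart.

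In the unstimulated JAK2 mutant, all 5 genes passed 2-fold over WT replicate 1, a difference known when they were chosen, where 0.226% of all genes did. Their places from the top of the 11529 genes were 1 for HGF, 3 for VGLL3, 4 for RAB7B, 5 for VSIG4 and 7 for KLF2. With IFN-gamma on both sides, 4 of the 5 again passed 2-fold, against a background of 0.347%, and HGF did not: its place was 1241, while RAB7B stood at 1, VGLL3 at 3, KLF2 at 6 and VSIG4 at 7. VSIG4 is counted and placed by its measured difference from WT values in the background range, and its bounds, 0.60 unstimulated and 0.69 with IFN-gamma, are below 2-fold. Both JAK2 mutant arrays lay above all 6 others for the probe sets that stand for the 5 genes, which was true of 26.6% of all genes. The lower of the JAK2 mutant arrays exceeded the highest other array by 2-fold for 4 of them, all but HGF and with VSIG4 again by its measured values, against 0.113% of all genes. All 5 were 2-fold higher than both unstimulated WT arrays, against 0.156% of all genes, and none had both JAK2 mutant arrays below all others, against 18.3%. These contrasts were known when the genes were chosen, so nothing is read from the counts.

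**Figure D1:**
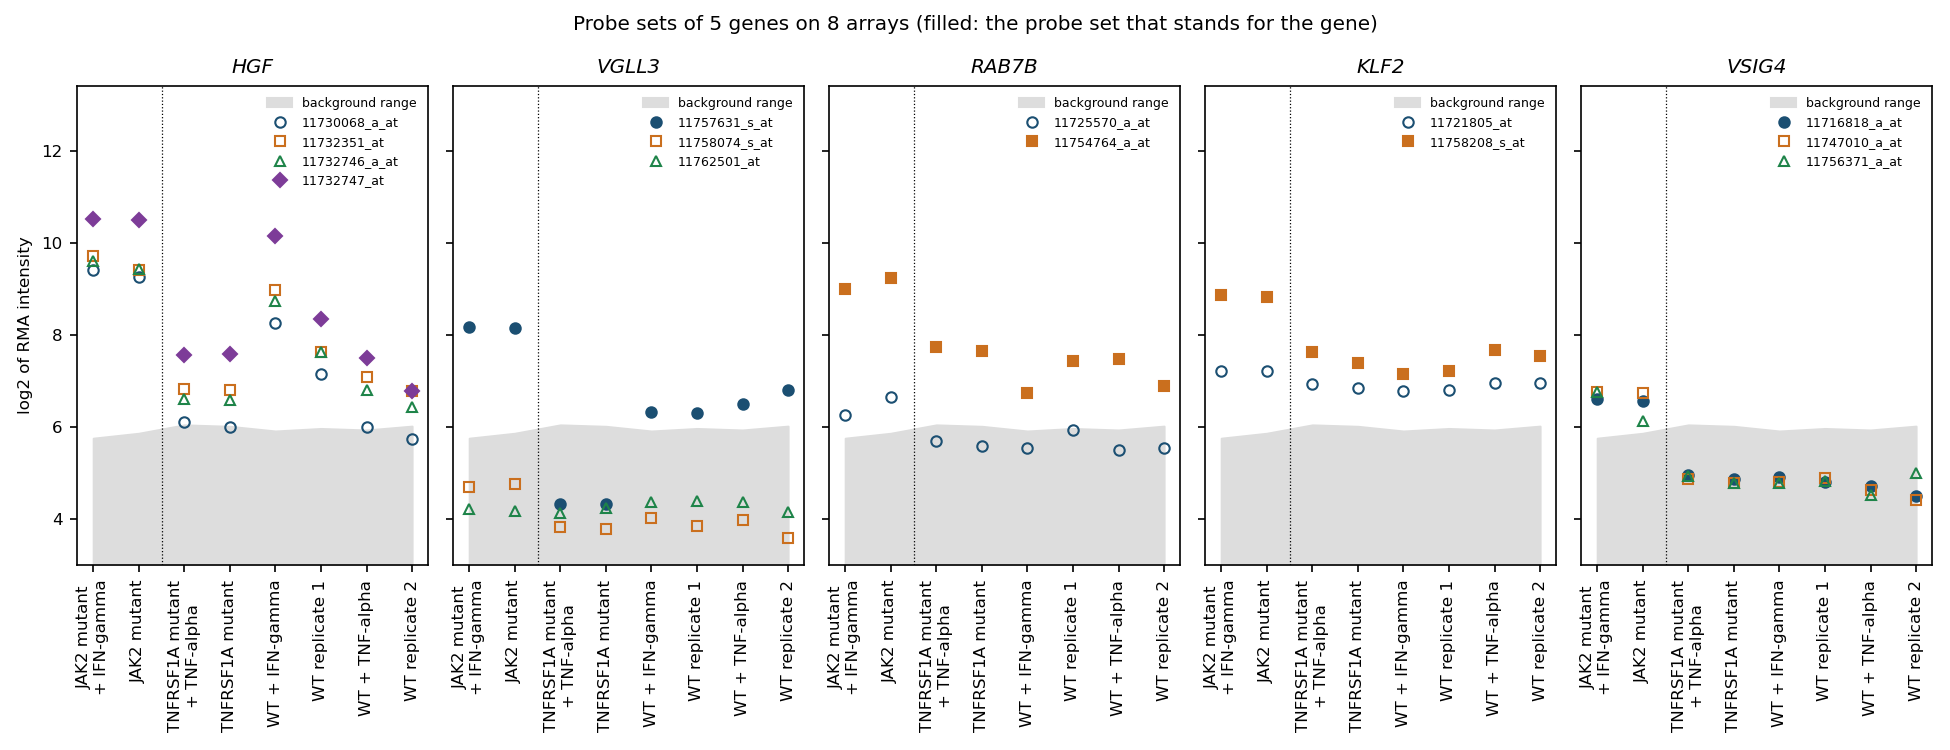
Log2 of RMA intensity (y axis) of the 14 probe sets on the 8 arrays (x axis), 1 panel per gene; filled symbols mark the probe set that stands for the gene, the grey area the background range, and the dotted line parts the JAK2 mutant arrays from the rest. HGF is also high in WT with IFN-gamma (10.14), VGLL3 is lowest in the TNFRSF1A mutant (4.32 and 4.33 with and without TNF-alpha), and VSIG4 is in the background range outside the JAK2 mutant.

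HGF, the ligand gene, had a level of 10.51 in the JAK2 mutant with IFN-gamma and of 10.49 in the unstimulated JAK2 mutant. The TNFRSF1A mutant had 7.57 with TNF-alpha and 7.59 unstimulated. WT cells read 10.14 after IFN-gamma and 7.49 after TNF-alpha, and the unstimulated WT arrays had 8.35 in replicate 1 and 6.78 in replicate 2. The JAK2 mutant arrays were the highest, and on this probe set WT with IFN-gamma came within 0.35 of the lower of them, less than the spread of 0.38. On the other 3 HGF probe sets that gap was 0.45, 0.68 and 1.00, more than the spread. The spread is taken over genes, and HGF itself differed more between the unstimulated WT arrays. Replicate 2 minus replicate 1 was -1.57 on the first probe set. On the other 3, in the same order, it was -0.84, -1.18 and lower by at least 1.13. Each is larger than the gap on its probe set, so the gap is not resolved.

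The difference of HGF from WT replicate 1 was 2.15 (4.43-fold), and the other 3 probe sets gave 1.79, 1.80 and 2.11. All 4 probe sets thus passed 2-fold in the unstimulated comparison. With IFN-gamma on both sides the same gene differed by 0.37, with 0.74, 0.86 and 1.15 for the other probe sets, of which 1 passed 2-fold. The WT replicates themselves differed by -1.57 (replicate 2 minus replicate 1), and HGF was the only one of the 5 genes with a 2-fold difference there, where 0.954% of all genes were higher and 1.03% lower. The JAK2 mutant exceeded replicate 2 by 3.72.

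VSIG4, the complement receptor gene, read 6.60 in the JAK2 mutant with IFN-gamma and 6.57 in the unstimulated JAK2 mutant. On the 6 other arrays it lay between 4.49 in WT replicate 2 and 4.95 in the TNFRSF1A mutant with TNF-alpha, all in the background range. Only bounds can therefore be given: VSIG4 was at least 1.51-fold higher (log2 0.60) in the unstimulated JAK2 mutant than in WT replicate 1 and at least 0.69 higher on the log2 scale with IFN-gamma on both sides.

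The measured differences of the 3 VSIG4 probe sets were 1.76, 1.86 and 1.29 unstimulated, and 1.68, 1.96 and 1.97 with IFN-gamma. With the WT values at the end of the background range, they were at least 0.60, 0.78 and 0.16 unstimulated, and at least 0.69, 0.86 and 0.85 with IFN-gamma, none of which reaches 2-fold. In all 3 both JAK2 mutant arrays lay above every other array, and all 3 passed the level filter through the JAK2 mutant arrays alone. The third probe set, 11756371_a_at, differed between the JAK2 mutant arrays themselves, with 6.76 in the JAK2 mutant with IFN-gamma against 6.12 unstimulated.

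RAB7B, the transport GTPase gene, had 8.99 in the JAK2 mutant with IFN-gamma and 9.24 in the unstimulated JAK2 mutant. It had 7.74 in the TNFRSF1A mutant with TNF-alpha and 7.65 in the unstimulated one. WT cells read 6.73 with IFN-gamma, 7.48 with TNF-alpha, 7.43 in replicate 1 and 6.90 in replicate 2. The JAK2 mutant arrays stood 1.25 or more above the highest other array, and none of the 8 values was in the background range.

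The RAB7B difference from WT was 1.81 (3.52-fold) unstimulated and 2.26 (4.78-fold) with IFN-gamma on both sides. The second probe set gave 0.70 and 0.72, with all of its values outside the JAK2 mutant in the background range. The probe sets of RAB7B agreed in direction and not in size. RAB7A, the paralog that acts in maturation of late endosomes, had differences of 0.03 and 0.05, within the spread.

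VGLL3, the TEAD cofactor gene, had 8.17 and 8.14 in the JAK2 mutant with and without IFN-gamma. In the TNFRSF1A mutant it had 4.32 and 4.33 with and without TNF-alpha, both in the background range. WT cells lay between, with 6.33 with IFN-gamma, 6.49 with TNF-alpha, 6.31 in replicate 1 and 6.80 in replicate 2. Both JAK2 mutant arrays lay above all others on this probe set, as in 26.6% of all genes. How many genes share the order of the 3 genotypes was not counted, so nothing is read from that order.

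VGLL3 was 1.83 (3.56-fold) higher in the JAK2 mutant than in WT unstimulated and 1.84 higher with IFN-gamma on both sides. In the unstimulated TNFRSF1A mutant it was lower than in WT replicate 2 by at least 0.78 on the log2 scale (1.72-fold), and with TNF-alpha on both sides by at least 0.45. The measured differences were -2.46 and -2.17, and 0.607% of all genes were 2-fold lower in the unstimulated TNFRSF1A mutant, and 0.919% with TNF-alpha. The probe sets of VGLL3 did not agree: 11758074_s_at gave 0.90 and 0.68 for the JAK2 mutant against WT, and 11762501_at gave -0.23 and -0.15. Both of these lay in the background range on all 8 arrays and did not pass the level filter, so the pattern of VGLL3 rests on 11757631_s_at.

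KLF2, the zinc finger factor gene, had 8.86 in the JAK2 mutant with IFN-gamma and 8.82 in the unstimulated JAK2 mutant. The 6 other arrays ran from 7.15 in WT with IFN-gamma to 7.67 in WT with TNF-alpha, and the TNFRSF1A mutant fell inside that range with 7.63 with TNF-alpha and 7.40 unstimulated. WT replicates 1 and 2 had 7.21 and 7.54. The JAK2 mutant arrays stood 1.15 or more above all others.

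KLF2 was 1.61 (3.06-fold) higher in the JAK2 mutant than in WT unstimulated and 1.71 (3.27-fold) higher with IFN-gamma. The other probe set, 11721805_at, gave 0.40 and 0.44. That probe set read 7.22 and 7.20 in the JAK2 mutant with and without IFN-gamma and 6.78 to 6.96 elsewhere, above the background range on every array, so the difference has the same direction in both sets and is 2-fold in 1.

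Over the 14 probe sets, 10 were 2-fold higher in the unstimulated JAK2 mutant, against 0.182% of the 24766 single-gene probe sets past the level filter, and 7 were with IFN-gamma on both sides, against 0.266%, the 3 of VSIG4 by their measured differences and not by their bounds. Of the 14, 12 passed that filter. RAB7B 11725570_a_at and the 3 VSIG4 probe sets passed it through the JAK2 mutant arrays alone, so they had to differ. In 13 of the 14 both JAK2 mutant arrays lay above all others, a pattern of 25.4% of probe sets, and the exception was VGLL3 11762501_at.

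**Figure D2:**
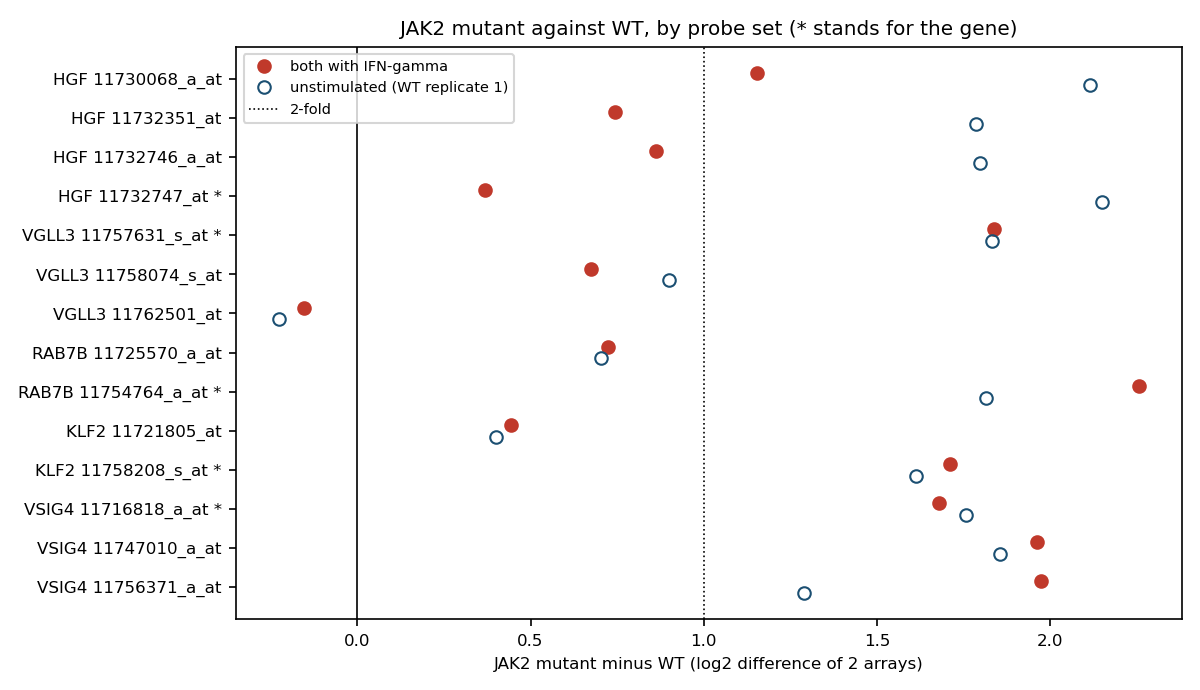
JAK2 mutant minus WT as the log2 difference of 2 arrays (x axis) for each probe set (rows), with IFN-gamma on both sides (filled) or unstimulated (open); a star marks the probe set that stands for the gene and the dotted line is 2-fold. The 4 HGF probe sets lie at 0.37 to 1.15 with IFN-gamma and at 1.79 to 2.15 unstimulated, while VGLL3 (1.83 and 1.84) and KLF2 (1.61 and 1.71) keep their place.

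The cytokine responses use the same arrays as the differences between genotypes, so they are not independent of the choice of the genes. WT replicate 1 is the control both for the JAK2 mutant and for the IFN-gamma response of WT. HGF was higher in WT cells with IFN-gamma, at 10.14 against 8.35 in unstimulated WT replicate 1, a difference of 1.79 (3.47-fold). The other probe sets gave 1.11, 1.11 and 1.34, so that all 4 passed 2-fold, where 0.607% of all genes did. Against WT replicate 2 the same difference was 3.36, since HGF was lower there. On this probe set the unstimulated WT arrays differed by 1.57, and on 11732351_at by 0.84, less than the responses of 1.79 and 1.34. On 11732746_a_at they differed by 1.18 and on 11730068_a_at by at least 1.13, more than the responses of 1.11. The size of the response is not resolved on the last pair. The JAK2 mutant, at its higher level, had a response of 0.01, with 0.15, 0.18 and 0.30 in the other probe sets, and 0.0% of genes were 2-fold higher there. The response of the JAK2 mutant differed from that of WT by -1.78 on the log2 scale for the probe set that stands for HGF and by -0.93 to -1.04 for the other 3. It equals the JAK2 mutant minus WT difference with IFN-gamma less the unstimulated one, so it adds nothing to those contrasts. This difference was not tested. In a limma fit of the 7 conditions, with 1 residual degree of freedom and both WT arrays as control, the response of HGF in WT had an adjusted p of 0.99997. The HGF level of the unstimulated JAK2 mutant, 10.49, was above that of WT with IFN-gamma, 10.14, by less than the spread on this probe set and by more than it on the other 3. On all 4 probe sets the unstimulated WT arrays differed from each other in HGF by more than that, so these levels are not resolved.

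The other 4 genes had no 2-fold response to IFN-gamma in either genotype. VGLL3 had 0.03 in the JAK2 mutant and 0.02 in WT, KLF2 had 0.04 and -0.06, and VSIG4 had 0.03 and 0.11, the WT values of VSIG4 being in the background range. RAB7B had -0.25 in the JAK2 mutant and -0.69 in WT, with -0.38 and -0.40 in its second probe set. Against WT replicate 2 the WT value of RAB7B was -0.16 and that of VGLL3 -0.46. The VSIG4 probe set 11756371_a_at had the highest value of these genes in the JAK2 mutant, 0.63, with 0.02 and 0.03 in its other probe sets.

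None of the 5 genes changed 2-fold with TNF-alpha. VSIG4 was in the background range on every array of the TNF-alpha arm, and VGLL3 on both TNFRSF1A mutant arrays. No response of these genes can be read there. The 14 probe sets ranged from -0.11 to 0.23 in the TNFRSF1A mutant, all within the spread, where 0.0% of all genes were 2-fold higher. In WT they ranged from -0.47 to 0.71, where 0.312% of genes were 2-fold higher and 0.00867% lower. HGF had the highest WT value, 0.71, and RAB7B had 0.58; against WT replicate 1 these were -0.85 and 0.05, so neither keeps its size with the other control array.

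**Figure D3:**
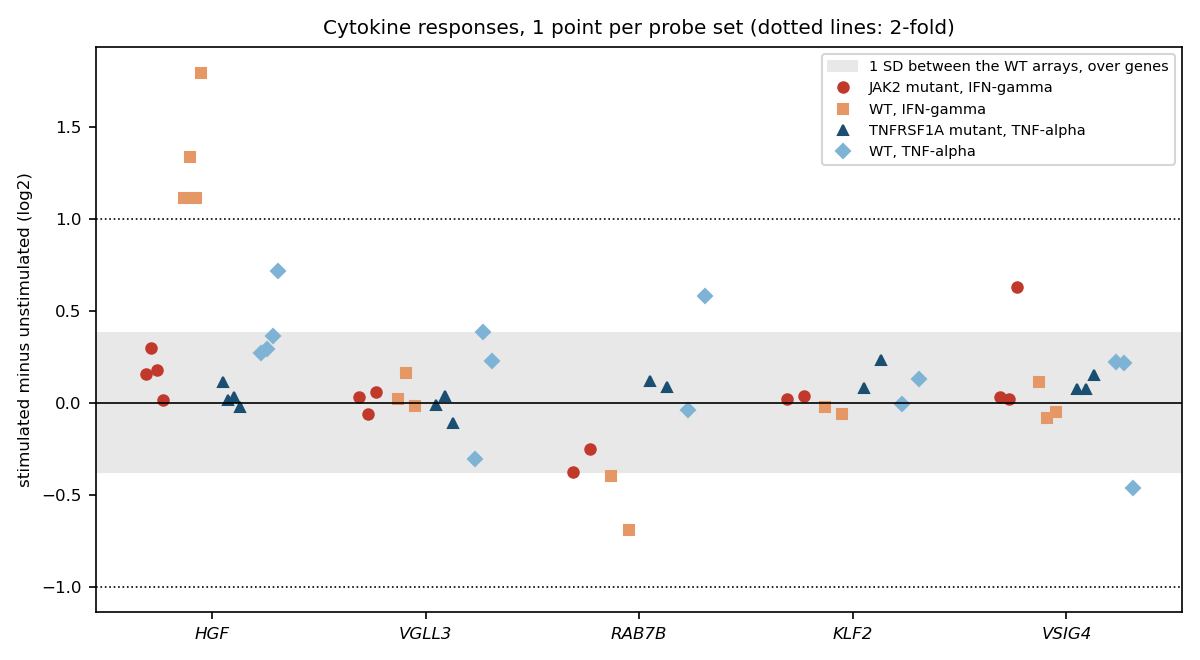
Stimulated minus unstimulated log2 value (y axis) for each probe set of the 5 genes (x axis) under the 4 pairings of genotype and cytokine; the grey band is 1 SD of the difference between the WT arrays over genes (0.38) and the dotted lines are 2-fold. Only the 4 HGF points of WT with IFN-gamma, 1.11 to 1.79, lie beyond 2-fold. HGF itself differed between the WT arrays by more than the band, by 0.84 or more.

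VGLL3 was 2-fold lower in the unstimulated TNFRSF1A mutant than in WT replicate 2 by its measured difference (-2.46). Its bound, lower by at least 0.78, is short of 2-fold. The other genes did not differ 2-fold in this comparison, where 0.373% of all genes were 2-fold higher. HGF had 0.81, RAB7B 0.76, VSIG4 0.38 and KLF2 -0.14. With TNF-alpha on both sides HGF had 0.07, RAB7B 0.26, VSIG4 0.23 and KLF2 -0.04. Both VSIG4 differences are between values in the background range. Replicate 1 in place of replicate 2 turned the sign of HGF, to -0.75.

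Across the 8 arrays the 5 genes share 2 high JAK2 mutant values, which any correlation between them includes. RAB7B, KLF2 and VSIG4 correlated with each other at a Pearson r of 0.93 in each pair. HGF, with its response to IFN-gamma in WT, had 0.82 with VSIG4 and 0.59 to 0.64 with the other 3, and VGLL3, low in the TNFRSF1A mutant, had 0.52 with RAB7B, 0.67 with VSIG4 and 0.70 with KLF2.

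The genes most like each of the 5 over the 8 arrays were found by Pearson r. For VGLL3 they were TRDC, the constant region gene of the T-cell receptor delta chain (r = 0.999), the choline transporter gene SLC44A1 (0.993) and the integrin gene ITGA7 (0.990). TRDC read 10.92 and 10.88 in the JAK2 mutant with and without IFN-gamma, 8.02 and 7.95 in the TNFRSF1A mutant with and without TNF-alpha, and 9.39 to 9.79 in the 4 WT arrays. None of its values lay in the background range. Its order of the 3 genotypes is that of VGLL3, which follows from its choice by r, so nothing is read from it. For VSIG4 they were the Mediator subunit gene MED17 (0.991), PRTN3, which encodes the neutrophil granule protease proteinase 3 (0.989), and RSAD1 (0.986). PRTN3 read 7.17 and 6.81 in the JAK2 mutant with and without IFN-gamma and 5.17 to 5.59 elsewhere, all of these in the background range.

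For HGF the closest were the topoisomerase gene TOP1 (0.987), TXNL4B (0.985) and WDR44 (0.984), which differed between the unstimulated JAK2 mutant and WT replicate 1 by only 0.23, 0.26 and 0.31. Their responses to IFN-gamma in WT were 0.25, 0.22 and 0.27. All of these values are below the spread of 0.38. The shared shape follows from the choice by r, and the size was not shared. For RAB7B they were the shelterin gene ACD (0.994), the sirtuin gene SIRT7 (0.983) and POLR1C, a subunit gene of RNA polymerases I and III (0.982). For KLF2 they were CDAN1 (0.987), RPF2 (0.983) and UTP3 (0.980), the last pair being genes of ribosome assembly. CDAN1 and POLR1C differed by 0.67 and 0.68, below 2-fold.

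Genes next to the 5 on their chromosomes were read the same way. Of the 30 nearest compared genes, 3 on each side of each gene in the RefSeq order, 0 were 2-fold higher in the unstimulated JAK2 mutant and 1 was 2-fold lower. Over all genes 0.226% were higher and 1.91% lower, so nothing is read from these counts. Their median was 0.07, with a range from -1.43 to 0.73. HGF lies between GNAI1 (0.35) and SEMA3A (-0.31), and SEMA3D, the next one on, had -0.996, just short of 2-fold. VGLL3 lies between GBE1 (0.07) and CHMP2B (0.15), and ROBO1, an axon guidance receptor gene, was the lower neighbour, with -1.43 unstimulated and -1.56 with IFN-gamma. RAB7B lies between SLC41A1 (0.02) and RHEX (-0.03), with IKBKE at 0.73 as the highest neighbour. KLF2 lies between AP1M1 (0.45) and EPS15L1 (0.15), and VSIG4 between MSN (0.22) and YIPF6 (0.10).

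Genes that act with the 5 were read from lists. In the unstimulated JAK2 mutant 0.226% of all genes were 2-fold higher and 1.91% lower. Each list count below is to be read beside these shares, and in lists this short a count of 0 says little. Of 9 compared genes of HGF activation and MET signalling, 0 passed 2-fold in the JAK2 mutant in either direction, with a median of -0.10 against 0.03 over all genes. SPINT1, an inhibitor of the proteases that activate HGF, had -0.74, the adaptor gene GAB1 -0.35 and the urokinase gene PLAU 0.33. MET, the HGF receptor gene, lay in the background range on all 8 arrays, as did HGFAC and MST1. Of 12 compared VGLL, TEAD and Hippo pathway genes, 0 passed 2-fold and the median was -0.01; TEAD4 had 0.42, TEAD2 -0.29 and LATS2 -0.23. YAP1, CCN2, AMOTL2 and ANKRD1, the last 3 known as YAP and TEAD targets, lay in the background range throughout.

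Of 16 compared late endosome Rab genes and RAB7B partners, 0 passed 2-fold and the median was 0.03, with RILP, an effector of RAB7A, at 0.37, RAB29 at 0.24 and RAB32 at -0.21. Of 11 compared KLF genes other than KLF2, 0 passed and the median was -0.05; KLF11 had -0.71, KLF10 -0.60 and KLF7 0.59. KLF4, the close relative of KLF2, lay in the background range on all arrays. Of 9 compared inducers and regulated genes of KLF2, 0 passed and the median was -0.19, with MEF2D at -0.54, FOXO1 at 0.53 and MEF2A at -0.41; S1PR1 and THBD, which KLF2 is known to induce, were in the background range.

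Of 10 compared complement and B7 genes, 0 were 2-fold higher and 1 was lower, against 1.91% of all genes, with a median of -0.32. It was ITGAM, the alpha chain of complement receptor 3, with 5.30 in the unstimulated JAK2 mutant against 6.91 in WT replicate 1 and 4.96 in the TNFRSF1A mutant against 6.38 in WT replicate 2. The mutant values were in the background range, so ITGAM was lower by at least 1.05 in the JAK2 mutant and by at least 0.37 in the TNFRSF1A mutant. CD276 had -0.73 and CD80 -0.53. Of 15 compared JAK and STAT5 genes, 0 passed 2-fold unstimulated and the median was 0.21, with JAK3 at -0.80, SOCS1 at -0.69 and SOCS2 at 0.56. With IFN-gamma on both sides, JAK3 (-1.40) and SOCS1 (-2.46) were 2-fold lower, against 2.67% of all genes, of which SOCS1 rose with IFN-gamma in WT by 1.88.

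**Figure D4:**
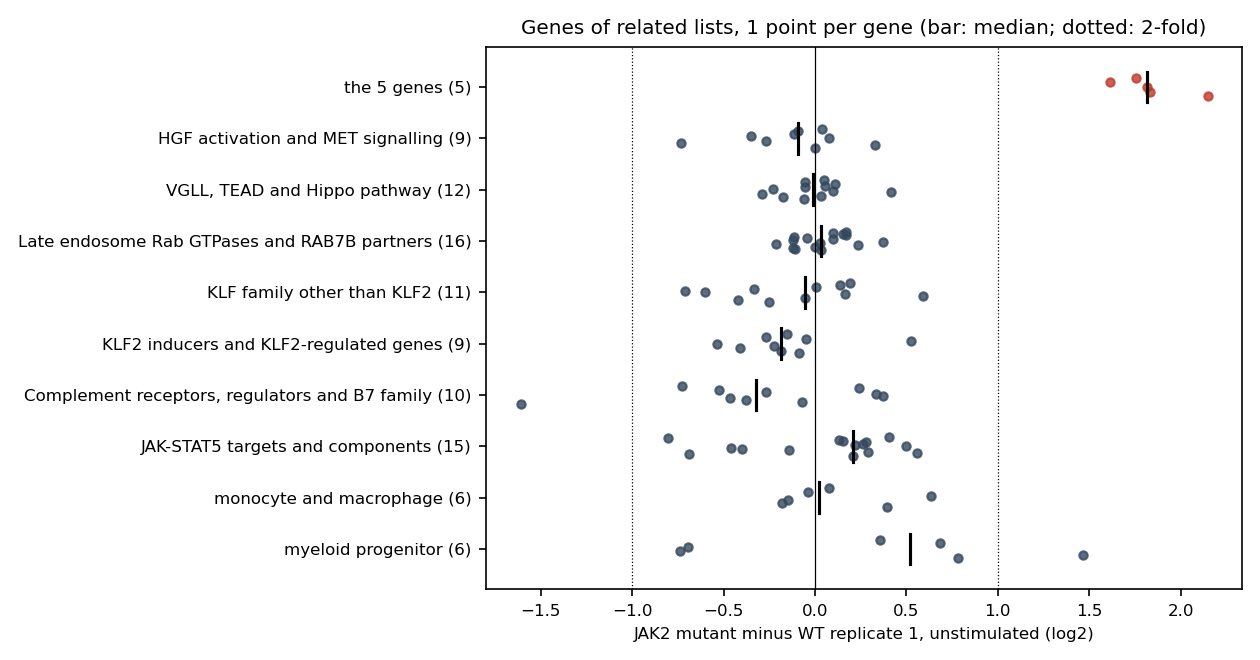
JAK2 mutant minus WT replicate 1, unstimulated, in log2 (x axis) for the 5 genes and the compared genes of 9 lists (rows, number of genes in brackets); bars are medians and dotted lines 2-fold. The 5 genes, which were chosen on this difference, lie at 1.61 to 2.15. By measured differences, of the other genes shown only PRTN3 (1.46) is 2-fold higher and only ITGAM (-1.61) 2-fold lower. By their bounds PRTN3 is higher by at least 0.85, short of 2-fold, and ITGAM lower by at least 1.05.

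Markers of blood cell types were read beside VSIG4. Of 12 monocyte and macrophage markers, 6 were compared and 0 passed 2-fold in either direction, with a median of 0.02. LYZ had 0.64, CD68 0.39, C1QA 0.08, AIF1 -0.04, MERTK -0.15 and CSF1R -0.18. Against WT replicate 2, CD68 had -0.15. CD14, CD163, MRC1, MARCO, MSR1 and C1QB lay in the background range on all 8 arrays. The summed intensity of the list was 3966 and 3886 in the JAK2 mutant with and without IFN-gamma, and 2898 and 2884 in the TNFRSF1A mutant with and without TNF-alpha. In WT it was 3558 with IFN-gamma, 3702 in replicate 1, 3097 with TNF-alpha and 3129 in replicate 2. AIF1, the brightest gene of the list, read 11.32 to 11.38 on the arrays of the IFN-gamma arm and 10.76 to 10.99 on those of the TNF-alpha arm. The sums thus differ between the arms too.

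Of 10 myeloid progenitor markers, 6 were compared, and PRTN3 alone was 2-fold higher in the unstimulated JAK2 mutant, by its measured difference of 1.46. Over all genes 0.226% were 2-fold higher there. The WT value of PRTN3 was in the background range, and its bound, at least 0.85, is below 2-fold. PRTN3 passed the level filter through the JAK2 mutant arrays alone. MPO, the myeloperoxidase gene, had 0.78, and CEBPA, a myeloid transcription factor gene, 0.69, while CD34 had -0.74 and KIT -0.70. With IFN-gamma on both sides PRTN3 (1.82, at least 1.25 by its bound), MPO (1.04) and CEBPA (1.04) passed 2-fold, against 0.347% of all genes. ANPEP had 0.21, KIT -0.13 and CD34 -0.50 there. CEBPA was not particular to the JAK2 mutant: the unstimulated TNFRSF1A mutant minus WT replicate 2 was 1.01, with 0.34 for PRTN3 and -0.32 for MPO. The IFN-gamma response of CEBPA in WT was -0.42. The summed intensity was, in the same order, 2097 and 2076 in the JAK2 mutant, 1999 and 2135 in the TNFRSF1A mutant, and 1598 to 1760 in WT, and ELANE, AZU1 and SPI1 lay in the background range throughout. The part of these markers in the results was not tested.

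Among markers of other types, 0 of 3 compared erythroid, 0 of 3 megakaryocyte, 0 of 2 T cell, 0 of 1 B cell, 0 of 3 NK cell and 0 of 2 endothelial genes passed 2-fold, and 0 of 6 fibroblast markers reached the level filter. The T cell marker CD3D read 8.92 and 8.83 in the JAK2 mutant with and without IFN-gamma, 8.71 and 8.74 in the TNFRSF1A mutant with and without TNF-alpha and 9.31 to 10.03 in WT, while CD3E, CD2 and CD8A lay in the background range on every array.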

How the data were processed

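Biotin-labelled RNA of KBM7 cells was measured on 1-colour Affymetrix arrays, 1 per sample, per the labels. The deposited values are normalized intensities of probe sets; RMA and Affymetrix Expression Console 1.1 are named in the submitters' processing notes. Their linear scale was inferred from the values, whose maxima ran from 31093 to 32905 per array, so log2 was taken, with no pseudocount. RMA gives all arrays 1 distribution, so that a change common to most genes is hidden.

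Probe sets were named from the platform annotation, with symbols updated through gene identifiers (RefSeq, GRCh38.p14): 44994 had 1 gene, 1832 several and 2569 were not listed. Of the single-gene probe sets of a gene the brightest on average stands for it, and a gene was compared if its log2 reached 6 on any array. Where the lower of 2 values lay under the upper quartile of the 23 background probe sets of its array, it was raised to that quartile for the bounds. Named genes were the 5 genes, the targeted genes, the 3 genes of highest Pearson r, the 3 neighbours on each side, and of each list the 3 largest differences and any past 2-fold, with RAB7A; genes in the background range, CD3D and list members beyond these were named after their values were seen. The genes and lists were chosen with earlier results of these data known. Calculations used Python 3.11.15, pandas 2.3.3 and limma 3.58.1 in R 4.3.3, and calling was tested on simulated data. Alternatives were other WT controls, probe set rules, thresholds, level filters, quantile and loess (span 0.3) normalization, and a limma fit of 7 conditions with 1 residual degree of freedom. The number of arrays limits the precision.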

Additional observations from a re-analysis of the deposited data

How the results depend on the processing

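Of the alternative values of the 5 genes, 177 in all, 142 moved by less than the spread, among them those under the further quantile and the loess normalization. The sign turned in 17, of which 2 had passed 2-fold, both of VGLL3. HGF depends on the WT array: JAK2 mutant minus WT was 3.72 against WT replicate 2 and 2.93 against the mean of both, the IFN-gamma response of WT was 3.36 without WT replicate 1, and without WT replicate 2 the TNF-alpha response of WT was -0.85 and the difference of the TNFRSF1A mutant -0.75. The other genes were read against the other WT array too: JAK2 minus WT was 1.35 for VGLL3 and 2.35 for RAB7B, the TNFRSF1A mutant differed by -1.98 and 0.22, and the WT responses were -0.46 and -0.16 for IFN-gamma and 0.18 and 0.049 for TNF-alpha. HGF in both JAK2 mutant arrays minus the rest was 2.95 without WT with IFN-gamma, and VGLL3 1.67 without the TNFRSF1A mutant (both chosen after seeing the data).

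The mean of all probe sets of a gene lowered JAK2 minus WT to 0.84 for VGLL3, 1.26 for RAB7B and 1.01 for KLF2 unstimulated, and gave 0.79, 1.49 and 1.08 with IFN-gamma, where HGF had 0.78. It gave 1.06, 1.31 and 0.87 for both JAK2 mutant arrays minus the rest, 1.34 for the IFN-gamma response of HGF in WT, 0.31 for HGF and -0.72 for VGLL3 in the TNFRSF1A mutant, and 0.10 for VGLL3 in WT with TNF-alpha. Without _s_at and _x_at probe sets, VGLL3 turned to -0.23 against WT and -0.083 against the rest, on a probe set in the background range, and KLF2 had 0.40 and 0.34. With the WT value raised to the background quartile, VSIG4 had 0.60 and 0.69. The causes were not tested.

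Counts over all genes moved with the threshold, level and control. In the unstimulated JAK2 mutant, 215 were higher and 495 lower at 1.5-fold, 7 and 97 at 3-fold, 13 and 127 at a level of 8, 17 and 139 with mean probe sets, 334 and 421 without WT replicate 1, and 65 higher against the mean of WT. With IFN-gamma these were 328 and 635, 8 and 141, 25 and 191, and 24 and 198. The TNFRSF1A mutant had 442, 44, 62 and 61 genes past the threshold under these settings and 196 without WT replicate 2. Responses past 1.5-fold numbered 44 and 175 for IFN-gamma in the JAK2 mutant and WT, and 5 and 135 for TNF-alpha in the TNFRSF1A mutant and WT; past 3-fold WT had 28 and 15, and with the other WT array 271 and 243. The limma fit at an adjusted p of 0.05 called 0 higher and 19 lower in the unstimulated JAK2 mutant (247 and 473 at an unadjusted p under 0.05), 0 and 21 with IFN-gamma (118 and 416), 5 in the TNFRSF1A mutant, and 1 for either WT response. No paired analysis was possible because the groups compared share fewer than 2 replicate numbers. The spread in this fit comes from the WT pair alone, and VSIG4 is limited by signal over background.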
